A study of Vitis vinifera with 27 samples.

Results

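The mevalonate pathway enzymes were followed here through 8 genes, the most abundant gene for each enzyme, in ripening Muscat grape berries. A gene was eligible when its only Kegg Orthology entry, the code that files a gene under an enzyme, was 1 of 8 numbers, and among the eligible genes of a number the member was chosen by its measured value, the highest mean FPKM over the 27 samples. FPKM is the number of fragments per kilobase of transcript, scaled to the fragments assigned in the sample. This gave 8 members of 20 eligible genes, of 25 genes that carried 1 of the numbers at all, and of 27096 genes in the files. The mean FPKM that chose the members is a description of them and no test was made on it. Differences between stages and between cultivars did not enter this rule. The members and the lists of other genes were, however, chosen with earlier results of these data known.

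The samples were whole berries of *Vitis vinifera* from 3 table grape cultivars, all of the Muscat type. Xiangfei is strongly flavoured with green to golden berries, Italia is moderately flavoured, and Zaomeiguixiang is strongly flavoured with purple-reddish berries. Each was sampled at EL35, when berries begin to colour and soften, at EL36, when their sugar is intermediate, and at EL38, when they are ripe for harvest. That made 9 groups with 3 replicates, each a pool of berries, with no treatment or genotype beyond the cultivar. How the sampled vines were divided among the replicates is not given in the paper.

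The mevalonate pathway runs in the cytosol and peroxisomes of plant cells and builds isopentenyl diphosphate, the unit of all terpenoids, from acetyl-CoA. Its products feed sterols, sesquiterpenes and the side chains of ubiquinone, while the monoterpenes that give Muscat berries their scent are thought to draw mainly on the separate plastid pathway. Acetyl-CoA acetyltransferase (AACT) joins acetyl-CoA units, hydroxymethylglutaryl-CoA synthase (HMGS) adds a further unit, and hydroxymethylglutaryl-CoA reductase (HMGR), a membrane enzyme generally regarded as the main point of control, makes mevalonate. Mevalonate kinase (MVK), phosphomevalonate kinase (PMK) and diphosphomevalonate decarboxylase (MVD) turn mevalonate into isopentenyl diphosphate. Isopentenyl-diphosphate isomerase (IDI) interconverts it with dimethylallyl diphosphate, and farnesyl diphosphate synthase (FPPS) condenses these into the precursor of sesquiterpenes and sterols.

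The members were LOC100240809 for AACT, LOC100244379 for HMGS, LOC100245191 for HMGR, LOC100251148 for MVK, LOC100242124 for PMK, LOC100251686 for MVD, LOC100253066 for IDI and LOC100232975 for FPPS. All 8 were listed above 0 in all 27 samples and passed the filter on low counts. The enzyme name fits the files' description of every member except LOC100253066. That gene is described in the files as an uncharacterized protein, its transcript of 711 bases (median over samples) is shorter than the 1138 bases of LOC100241072, the gene the files describe as isopentenyl-diphosphate isomerase, and its label therefore rests on the Kegg Orthology number alone. In the ASM3070453v1 annotation, an assembly other than the one the authors used, both genes lie on the same chromosome with 16 genes between them.

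The total of expected counts lay between 16908557 and 27186956 per sample. In 3 samples, transcripts of a list of 33 seed genes (oleosins, storage proteins and late embryogenesis abundant proteins) stood apart, with a summed FPKM of 62929 in Italia EL35 replicate 3, 16797 in Zaomeiguixiang EL35 replicate 3 and 3798 in Xiangfei EL38 replicate 3, against 201 to 1221 in the other 24. In those 3 samples 29, 30 and 30 of the 33 genes were above 0. In the other 24 samples 14 to 32 were, so this count did not set the 3 apart. The list of 153 ripening berry genes was present in every sample, at a summed FPKM of 5624 to 49276, and its lowest value was in Italia EL35 replicate 3. The 21 green tissue genes summed to 320 to 5787. The number of genes listed above 0 ran from 16745 to 21653 per sample.

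The pathway was uneven along its length. Mean FPKM over the 27 samples was 328 for AACT, 284 for HMGS and 84.2 for HMGR, then 9.65 for MVK, 13.1 for PMK and 33.2 for MVD, and again 625 for IDI, with 12.9 for FPPS. These levels are per length of transcript and can be compared between genes. The label of the IDI member rests on its number alone, and LOC100241072, the gene described as the isomerase, had a mean of 192. In 27 of 27 samples AACT, HMGS and HMGR were each above MVK, PMK and FPPS. IDI was the highest of the 8 in 26 samples and AACT in the remaining 1, and HMGR held place 4 or 5 in every sample.

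The depth behind these levels differed accordingly. The expected count of AACT was 5722 to 19350 per sample and that of HMGS 3916 to 18974. For FPPS it was 61 to 792 and for MVK 103 to 762. The median coefficient of variation over the 9 groups was lowest for MVD (13.6%), HMGS (19.9%) and AACT (22.8%). It was highest for PMK (47.4%) and FPPS (47.1%).

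**Figure D1:**
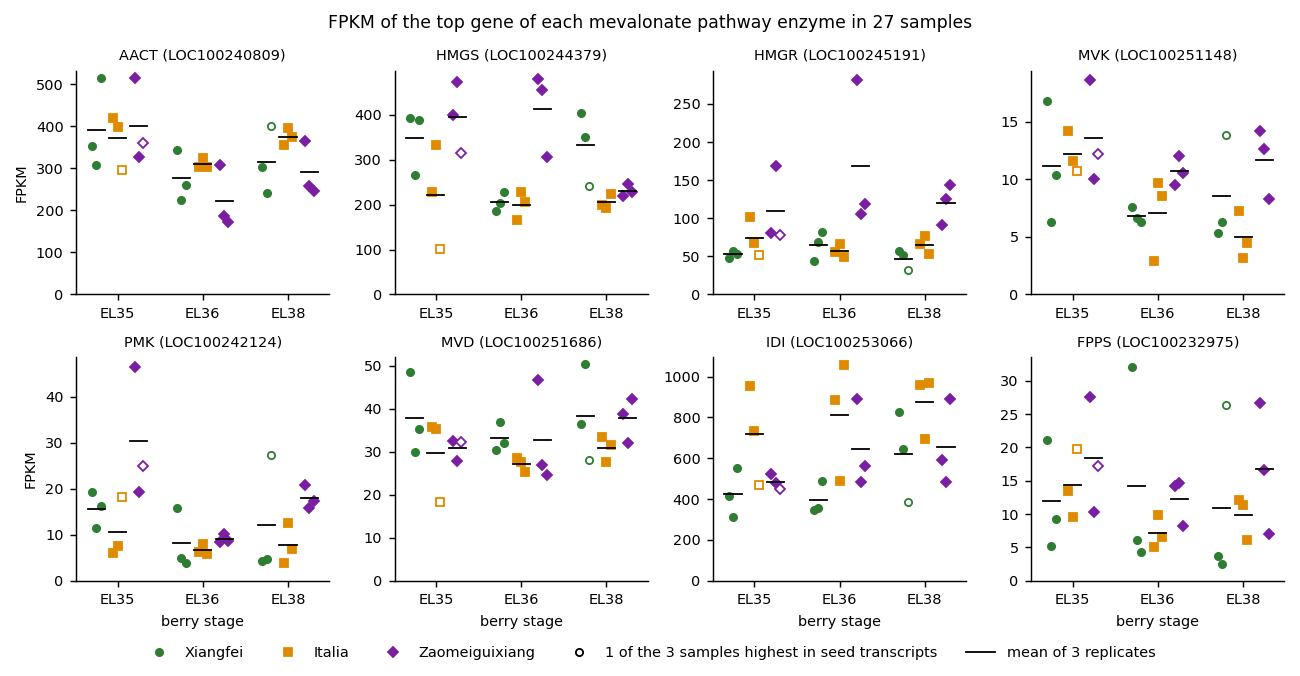
FPKM of each member (vertical axis, from 0) by berry stage, with 1 point per sample, 3 replicates per cultivar and stage, and a bar at their mean. Open points are the 3 samples highest in seed transcripts. PMK was highest in Zaomeiguixiang EL35, at 19.39 to 46.52, and HMGR was higher in most Zaomeiguixiang samples than in those of the other cultivars.

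The change over ripening was the first question. Only PMK, the kinase that phosphorylates mevalonate phosphate, passed the test in a stage comparison, with a lower level at EL36 than at EL35. Stage contrasts were averaged over the cultivars in 1 fit of all 27 samples, by the quasi-likelihood test of edgeR with p-values adjusted over 21152 genes (Benjamini-Hochberg), and a gene was called at an adjusted p of at most 0.05. From EL35 to EL36, 1 of 8 members was called, beside 10.8% of all genes tested, so that the share of members was close to the background. From EL35 to EL38 none was called with edgeR or with DESeq2, and 2 had an unadjusted p under 0.05. The background was 10.1% with edgeR and 10.9% with DESeq2. From EL36 to EL38 none was called with either tool, and none had an unadjusted p under 0.05. The background was 0.00473% with edgeR and 0.785% with DESeq2. Each background is a share of all genes called at the adjusted threshold, and none is given for unadjusted p. In whole berries, fewer cells of a type and less RNA per cell cannot be told apart.

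PMK in Zaomeiguixiang was 46.52, 19.39 and 24.87 FPKM at EL35, 8.4, 10.15 and 8.6 FPKM at EL36, and 20.74, 15.74 and 17.23 FPKM at EL38. All 3 samples at EL36 lay below all samples of the other stages. In Xiangfei it was 19.32, 11.57 and 16.17 FPKM at EL35, 15.86, 4.97 and 3.84 FPKM at EL36, and 4.29, 4.81 and 27.39 FPKM at EL38. Here 1 sample at EL36 lay within the EL35 range, and the highest value of the cultivar was the EL38 sample with seed transcripts. In Italia it was 6.04, 7.56 and 18.23 FPKM at EL35, 6.17, 7.96 and 5.92 FPKM at EL36, and 3.85, 12.51 and 6.83 FPKM at EL38. The value of 18.23 FPKM was again from a sample with seed transcripts, and the other EL35 values lay within the range at EL36.

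Averaged over cultivars, PMK fell by 0.99 on the log2 scale from EL35 to EL36 (SE 0.26, edgeR adjusted p = 0.0166), to about 1.99-fold lower levels. The log2 fold change was -1.71 (SE 0.46) in Zaomeiguixiang, -0.84 (SE 0.45) in Xiangfei and -0.43 (SE 0.45) in Italia, and the cultivars were not shown to differ in it (interaction, edgeR adjusted p = 0.72). Without the 3 samples with seed transcripts the averaged change was -0.94 (edgeR adjusted p = 0.00881). Scaling by library size alone ended the call, at -1.11 with an adjusted p of 0.053, and called AACT in its place (-0.54, adjusted p = 0.0438), which limma on log2(FPKM + 1) called beside PMK (-0.53, adjusted p = 0.0361). The part of seed transcripts in the levels of PMK was not tested.

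From EL35 to EL38, averaged over cultivars, the changes of the members ran from -0.65 to 0.4 on the log2 scale. None was called by edgeR on all 27 samples. The log2 fold change was -0.33 (SE 0.21) for AACT, -0.37 (SE 0.27) for HMGS and -0.14 (SE 0.31) for HMGR. For the later steps it was -0.65 (SE 0.23) for MVK, -0.59 (SE 0.26) for PMK and 0.11 (SE 0.24) for MVD. For IDI it was 0.4 (SE 0.29) and for FPPS -0.33 (SE 0.35). The median over the members was -0.33, beside 0.0 over all genes tested, and 6 of the 8 values were negative.

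MVK came nearest to the threshold there, with an edgeR adjusted p of 0.0769. Its FPKM in Italia was 14.25, 11.63 and 10.78 at EL35 and 7.3, 3.13 and 4.46 at EL38, so that the stages did not overlap. In Zaomeiguixiang it was 18.68, 10.07 and 12.18 at EL35 and 14.22, 12.67 and 8.34 at EL38, which overlapped. In Xiangfei it was 16.81, 6.33 and 10.37 at EL35 and 5.32, 6.32 and 13.91 at EL38, the last of these from the sample with seed transcripts. Without the 3 samples with seed transcripts, MVK (-0.83, edgeR adjusted p = 0.04) and PMK (-0.83, edgeR adjusted p = 0.0264) were both called as lower at EL38 than at EL35. MVK was also called without Italia EL38 replicate 1, which was not high in seed transcripts (-0.82, edgeR adjusted p = 0.0255).

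**Figure D2:**
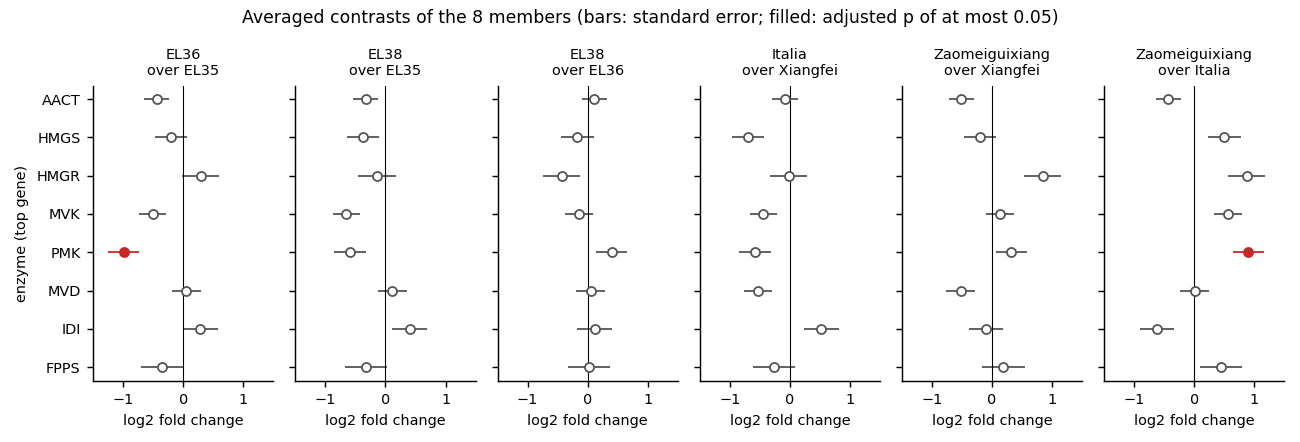
Log2 fold change of each member (horizontal axis) in the 3 stage contrasts averaged over cultivars and the 3 cultivar contrasts averaged over stages, from edgeR on 27 samples. Bars are standard errors and filled points have an adjusted p of at most 0.05, which PMK alone reached, for EL36 over EL35 (-0.99) and for Zaomeiguixiang over Italia (0.9).

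The second question was whether the cultivars differed. At the same stage label the cultivars were not equally ripe, and the paper's soluble solids were lowest in Italia at each stage. Cultivar and ripeness therefore cannot be told apart in these contrasts. Averaged over stages, PMK was higher in Zaomeiguixiang than in Italia, and HMGR was near the threshold in both contrasts with Zaomeiguixiang. For Zaomeiguixiang over Italia, edgeR called 1 of 8 members, beside a background of 15.5%, and 5 had an unadjusted p under 0.05. DESeq2 called 3 (PMK, HMGR and MVK), beside 16.1%. For Italia over Xiangfei edgeR called none, beside a background of 16.1%, 3 had an unadjusted p under 0.05, and DESeq2 called 1, beside 17%. For Zaomeiguixiang over Xiangfei edgeR called none, beside a background of 16%, 3 had an unadjusted p under 0.05, and DESeq2 called 2, beside 17.3%. These contrasts share samples with each other. Here too each background is a share of all genes called at the adjusted threshold, and none is given for unadjusted p. The PMK difference was 0.9 on the log2 scale (SE 0.26, edgeR adjusted p = 0.022), with 9 samples at 8.4 to 46.52 FPKM in Zaomeiguixiang and 3.85 to 18.23 FPKM in Italia. It missed the threshold without Zaomeiguixiang EL35 replicate 1 (0.78, edgeR adjusted p = 0.0581), without Italia EL35 replicate 1 (0.83, edgeR adjusted p = 0.0516) and with scaling by library size alone (1.03, adjusted p = 0.0638).

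HMGR had the largest share of its variation between cultivars of the 8 members. Of the sum of squares of log2(FPKM + 1), 59.8% lay between cultivars, 2% between stages and 31.5% between replicates, where the median over all genes tested was 17.4%, 8.54% and 52.9%. These shares rest on FPKM, without the scaling between libraries that the fit used. In Zaomeiguixiang the FPKM was 80.04, 168.02 and 77.49 at EL35, 281.32, 106.03 and 118.38 at EL36, and 91.4, 125.37 and 143.4 at EL38. In Xiangfei it was 48.49, 57.17 and 53.32 at EL35, 44.3, 68.79 and 82.27 at EL36, and 56.39, 51.26 and 32.01 at EL38. Only 1 Xiangfei sample, at 82.27, exceeded the lowest Zaomeiguixiang samples. In Italia the 9 values ran from 49.64 to 102.09, with a median of 65.8.

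The HMGR difference was 0.87 on the log2 scale over Italia (SE 0.31, edgeR adjusted p = 0.0625) and 0.84 over Xiangfei (SE 0.31, edgeR adjusted p = 0.0679). Neither passed the threshold. Both passed it with DESeq2, at 0.9 (adjusted p = 0.0221) and 0.85 (adjusted p = 0.0321), and with scaling by library size alone, at 1 (adjusted p = 0.00354) and 1.26 (adjusted p = 0.000616). Without the 3 samples with seed transcripts they were 0.85 (edgeR adjusted p = 0.048) and 0.82 (edgeR adjusted p = 0.0474). The call of HMGR therefore depended on the tool and on the scaling, while its direction did not.

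HMGS, which commits acetoacetyl-CoA to the pathway, also had more of its variation between cultivars (33.8%) than between stages (5.09%). These shares too rest on FPKM, and the scaling of the fit changed the cultivar difference. Mean FPKM of HMGS was 347 in Zaomeiguixiang and 296 in Xiangfei. The fit gave a log2 fold change of -0.2 (SE 0.27) for Zaomeiguixiang over Xiangfei, which was not called. In Zaomeiguixiang its FPKM was 400.17, 472.52 and 314.96 at EL35, 479.8, 456.11 and 305.18 at EL36, and 218.9, 246.55 and 227.32 at EL38. The 3 harvest samples lay below all 6 earlier samples of the cultivar. In Xiangfei it was 392.91, 265.62 and 389.65 at EL35, 185.77, 202.89 and 227.47 at EL36, and 404.05, 351.82 and 241.02 at EL38, so that the middle stage was the lowest and all its samples lay below the rest. In Italia it was 228.63, 332.96 and 102.32 at EL35, 166.21, 228.13 and 206.34 at EL36, and 198.81, 192.92 and 223.1 at EL38, with overlap between all stages. A difference of stage profile between cultivars was not shown for HMGS (interaction, edgeR adjusted p = 0.537).

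For the interaction edgeR called none of the 8 members, DESeq2 called none, and none had an unadjusted p under 0.05. The background was 0.662% with edgeR and 5.25% with DESeq2. The smallest adjusted p among the members was that of HMGS. Over the 18 pairwise contrasts, 9 between stages within a cultivar and 9 between cultivars within a stage, edgeR called none of the 144 combinations of member and contrast, beside 2.37% of all gene and contrast combinations. Of the 144, 12 had an unadjusted p under 0.05, and DESeq2 called 3, with no share over all combinations given for either count. These 3 were PMK at EL36 over EL35 in Zaomeiguixiang, PMK in Zaomeiguixiang over Italia at EL35, and MVK at EL38 over EL35 in Italia. Without Xiangfei EL38 replicate 3, edgeR called 4 of the 144, among them HMGS in Italia over Xiangfei at EL38 (-1.49, adjusted p = 0.0462). Without the 3 samples with seed transcripts it called 6. No share over all combinations is given for these 2 fits, so their counts describe the members only.

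The IDI member LOC100253066, whose label rests on the Kegg Orthology number alone, showed its highest levels in Italia. Its FPKM there was 954.28, 735.37 and 468.36 at EL35, 883.4, 487.89 and 1059.16 at EL36, and 957.38, 695.51 and 970.26 at EL38. In Xiangfei the 9 samples ran from 312.37 to 824.95 with a median of 415, and in Zaomeiguixiang from 448.84 to 890.64 with a median of 523. The ranges of the cultivars overlapped, and neither contrast of Italia was called (0.52, SE 0.29, edgeR adjusted p = 0.25 over Xiangfei). With scaling by library size alone, Italia over Xiangfei was 0.77 with an adjusted p of 0.0141. LOC100241072, the gene described as isopentenyl-diphosphate isomerase, had another order. Its mean FPKM was 293 in Zaomeiguixiang, 146 in Xiangfei and 139 in Italia.

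AACT had group means from 223 ± 74.3 FPKM in Zaomeiguixiang EL36 to 400 ± 100 FPKM in Zaomeiguixiang EL35 (SD, n = 3), a 1.79-fold range. Of its variation 34.5% lay between stages, the largest such share of the 8 members, where the median over all genes was 8.54%. This share, like those of FPPS and MVD below, rests on FPKM without the scaling between libraries. In the scaled fit AACT was not called at EL36 over EL35 (-0.44, SE 0.21, edgeR adjusted p = 0.196). MVD had the narrowest range, from 27.1 ± 1.6 FPKM in Italia EL36 to 38.3 ± 11.4 FPKM in Xiangfei EL38 (SD, n = 3). FPPS ran from 7.15 ± 2.43 FPKM in Italia EL36 to 18.4 ± 8.65 FPKM in Zaomeiguixiang EL35 (SD, n = 3). For FPPS, 77.8% of the variation lay between replicates, and for MVD 73%, above the median of 52.9% over all genes. When the 9 group means of a member were put in order, neighbours in that order overlapped in their replicates in 8 of 8 steps for each of the 8 members, so the order of adjacent groups was not resolved for any of them. Of all 36 pairs of groups, 15 did not overlap for HMGS, 15 for HMGR and 1 for FPPS, the fewest. No share over all genes is given beside these counts, so they describe the members only.

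The most abundant gene did not always speak for its number. AACT, HMGS, HMGR and IDI each had further genes with the same number, and the second gene by mean FPKM was LOC100855181 (59.3) for AACT, LOC104882418 (56.9) for HMGS, LOC100265082 (33.1) for HMGR and LOC100241072 (192) for IDI. For HMGR and IDI, the other genes fell after EL35, and the member was not called. MVK, PMK, MVD and FPPS had no other gene with their number as the only entry.

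LOC100265082, the second HMGR gene, was 58.09, 53.33 and 55.73 FPKM in Xiangfei, 91.29, 52.19 and 23.29 FPKM in Italia and 91.81, 42.22 and 60.98 FPKM in Zaomeiguixiang at EL35. At EL36 the highest of its 9 samples was 29.88 FPKM and the lowest 8 FPKM. Only Italia EL35 replicate 3, the sample with most seed transcripts, fell into that range at EL35. The log2 fold change, averaged over cultivars, was -1.68 (SE 0.33, edgeR adjusted p = 0.00198) at EL36 over EL35 and -1.38 (SE 0.33, edgeR adjusted p = 0.00808) at EL38 over EL35. LOC100243051, the least abundant HMGR gene, fell further, from 4.52 to 76.27 FPKM at EL35 to 1.76 to 14.63 FPKM at EL36 and 0.52 to 4.57 FPKM at EL38. Its log2 fold change was -2.12 (SE 0.44, edgeR adjusted p = 0.00285) and then -3.84 (SE 0.47, edgeR adjusted p = 1.48e-05) against EL35.

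LOC100241072, the gene the files describe as isopentenyl-diphosphate isomerase, was 587.78, 441.52 and 400.25 FPKM in Zaomeiguixiang at EL35, 274.43, 162.96 and 204.68 FPKM at EL36 and 227.82, 180.96 and 154.17 FPKM at EL38. All later samples of this cultivar lay below all of its EL35 samples. In Xiangfei it was 175.53, 247.39 and 319.39 FPKM at EL35, 117.8, 116.33 and 93.53 FPKM at EL36 and 65.18, 68.88 and 107.85 FPKM at EL38, again with no overlap. In Italia the EL35 values of 168.34, 350.15 and 124.74 FPKM overlapped those at EL36, which were 144.71, 94.56 and 77.23 FPKM. The averaged log2 fold change was -1.03 (SE 0.26, edgeR adjusted p = 0.0118) at EL36 over EL35 and -1.48 (SE 0.26, edgeR adjusted p = 0.000598) at EL38 over EL35. It was also higher in Zaomeiguixiang than in Italia, by 0.84 (SE 0.26, edgeR adjusted p = 0.0281). That last call was lost when any 1 of 8 of the 27 samples was left out, with an edgeR adjusted p of up to 0.0648.

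The member's share of the FPKM of its number moved accordingly. This share compares genes within a library and does not depend on the scaling between libraries. The HMGR member held 48.1% ± 13.1 of the HMGR FPKM at EL35, 76.4% ± 11.1 at EL36 and 73.1% ± 13.9 at EL38 (SD, n = 9 for each stage). It was below 50% in 6 samples, all at EL35, and down to 32.3% in Zaomeiguixiang EL35 replicate 1. The difference from EL35 was 28.3 percentage points at EL36 (two-sided exact permutation test of stage within cultivar, p = 0.0005, adjusted p = 0.00133 over 8 tests) and 25.1 points at EL38 (exact permutation p = 0.00075, adjusted p = 0.0015), positive in 3 of 3 cultivars each time.

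The IDI member held 63.7% ± 12.9 at EL35, 80.1% ± 6.84 at EL36 and 84.6% ± 8.12 at EL38 (SD, n = 9 for each stage). The difference from EL35 was 16.5 points at EL36 (exact permutation p = 0.0005, adjusted p = 0.00133) and 20.9 points at EL38 (exact permutation p = 0.00025, the smallest these permutations can give, adjusted p = 0.00133), positive in 3 of 3 cultivars each time. Without the 3 samples with seed transcripts, the differences were 28.9 and 24 points for HMGR and 17.1 and 23 points for IDI. For AACT the share was 84.4% ± 4.18 at EL35, and it differed by -0.198 points at EL36 and -0.52 points at EL38 (exact permutation p = 0.922 and 0.788). For HMGS it was 83.7% ± 2.65 at EL35, and it differed by -0.414 and -0.595 points (exact permutation p = 0.77 and 0.67). These tests were chosen after the values had been seen. A changed share shows unequal change of the genes of a number and not which of them changed.

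**Figure D3:**
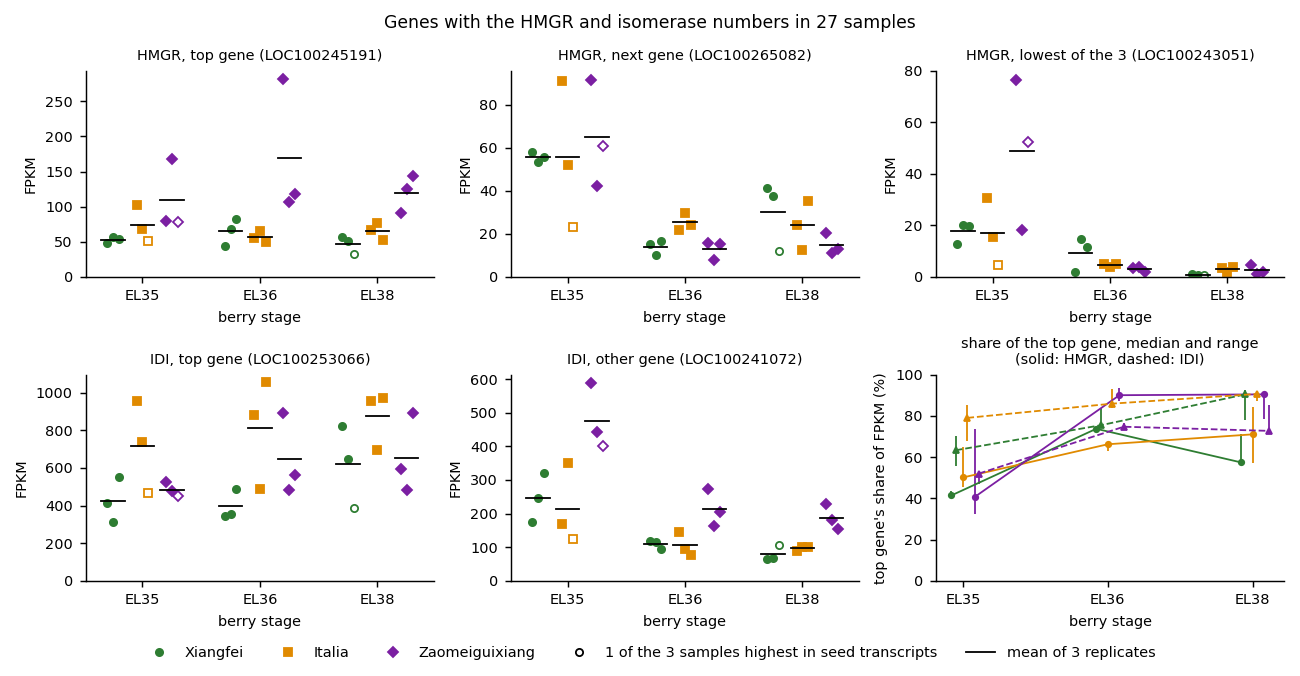
FPKM of the 3 genes with the HMGR number and the 2 with the isomerase number by berry stage (vertical axes from 0), with 1 point per sample and a bar at the mean of 3 replicates, and in the last panel the share of the top gene in the FPKM of its number, as the median and range of 3 replicates, in the cultivars' colours. The lower genes of each number fell after EL35, and the mean share of the HMGR top gene over 9 samples went from 48.1% at EL35 to 76.4% at EL36.

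Of the 17 other genes that carried 1 of the 8 numbers, 13 were tested. At EL36 over EL35, 3 of the 13 were called, all lower, beside 10.8% of all genes, and at EL38 over EL35 again 3, all lower, beside 10.1%, which were the genes LOC100265082, LOC100243051 and LOC100241072 each time. For Zaomeiguixiang over Italia, 2 of the 13 were called, both higher, beside 15.5% of all genes. For Italia over Xiangfei, 2 of the 13 were called, 1 higher and 1 lower, beside 16.1%, so that these shares were close to the background. The gene lower in Italia was LOC100855181, the second AACT gene, at -0.96 (SE 0.22, edgeR adjusted p = 0.00339), which was also lower in Zaomeiguixiang than in Xiangfei, at -0.79 (SE 0.22, edgeR adjusted p = 0.0146). With scaling by library size alone this last difference was not called, at -0.35 with an adjusted p of 0.266. AACT itself was not called by edgeR on all 27 samples in either contrast, but for Zaomeiguixiang over Xiangfei DESeq2 called it as lower (-0.5, adjusted p = 0.0433), and so did edgeR without Italia EL35 replicate 3 and Xiangfei EL38 replicate 3 (-0.54, adjusted p = 0.0465) and without Zaomeiguixiang EL36 replicate 1 (-0.65, adjusted p = 0.0369). LOC104882418, the second HMGS gene, was called in no averaged contrast, and since it belongs to the same family as the HMGS member, the counting may have split shared reads between them.

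Downstream of FPPS, the sterol branch begins with squalene synthase, which joins farnesyl diphosphate units. Of 35 genes with 1 of the sterol numbers as their only entry, 31 were tested. This list was chosen with earlier results of these data known. At EL36 over EL35, 12 of the 31 were called, all lower, beside 10.8% of all genes, with a median log2 fold change of -0.85 beside -0.02 over all genes. At EL38 over EL35, 9 were called, all lower, beside 10.1% of all genes, with a median of -0.76. Squalene synthase LOC100265798 fell by 1.2 on the log2 scale at EL36 (SE 0.26, edgeR adjusted p = 0.00433) and by 1.06 at EL38 (SE 0.26, edgeR adjusted p = 0.0103). With scaling by library size alone the latter was -0.95 with an adjusted p of 0.079. Its FPKM in Italia was 98.43, 90.35 and 121.57 at EL35 against 38.75, 57.38 and 44.21 at EL36 and 33.39, 54.53 and 66.49 at EL38, with no overlap. Cycloartenol synthase LOC100258153, which closes the first ring system of plant sterols, fell by 1.23 (SE 0.23, edgeR adjusted p = 0.00144) and by 1.51 (SE 0.24, edgeR adjusted p = 0.000211). In Zaomeiguixiang its FPKM was 57.32, 51.17 and 47.43 at EL35 and at most 34.37 in the later samples. Sterol 24-C-methyltransferase LOC100263590 fell by 1.1 at EL36 (SE 0.21, edgeR adjusted p = 0.0014) and 4,4-dimethylsterol oxidase LOC100255536 by 1.23 (SE 0.24, edgeR adjusted p = 0.00184). FPPS, at the head of the branch, had a log2 fold change of -0.36 (SE 0.35) from EL35 to EL36 and was not called. The difference between the sterol genes and the members was not tested.

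The members did not vary as a unit across samples. The Pearson correlation of log2(FPKM + 1) over the 27 samples had a median of 0.12 over the 28 pairs of members, between -0.46 and 0.74, and 3 pairs exceeded 0.5. These 3 were PMK with FPPS (0.74), MVK with FPPS (0.66) and MVK with PMK (0.58), the low-abundance genes of the set. The lowest was PMK with IDI (-0.46). Of the early enzymes, HMGS and HMGR reached 0.39, and AACT with HMGS 0.02. When each group's mean was taken out, PMK with FPPS was 0.8, MVK with FPPS 0.67 and HMGS with MVD 0.64, and the median was 0.22. The same 3 pairs were at 0.7, 0.6 and 0.33 without the 3 samples with seed transcripts, so that the value of HMGS with MVD rested largely on those samples. The members were measured in the same libraries and the samples share groups, so the values are descriptions.

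FPPS and PMK also moved with the breadth of the libraries. The correlation with the number of genes listed above 0, over 27 samples, was 0.73 for FPPS, 0.6 for PMK and 0.31 for MVK, and -0.57 for IDI. Without the 3 samples with seed transcripts it was 0.69 for FPPS, 0.49 for PMK and -0.51 for IDI. In Xiangfei EL36, replicate 1 had 32.1 FPKM of FPPS and 21653 genes listed, and the other replicates had 6.18 and 4.29 FPKM with 19456 and 17019 genes listed. In Xiangfei EL38 the sample with seed transcripts had 26.42 FPKM of FPPS with 21150 genes listed, and the others had 3.78 and 2.55 FPKM. The part of library breadth and of seed transcripts in these levels was not tested.

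**Figure D4:**
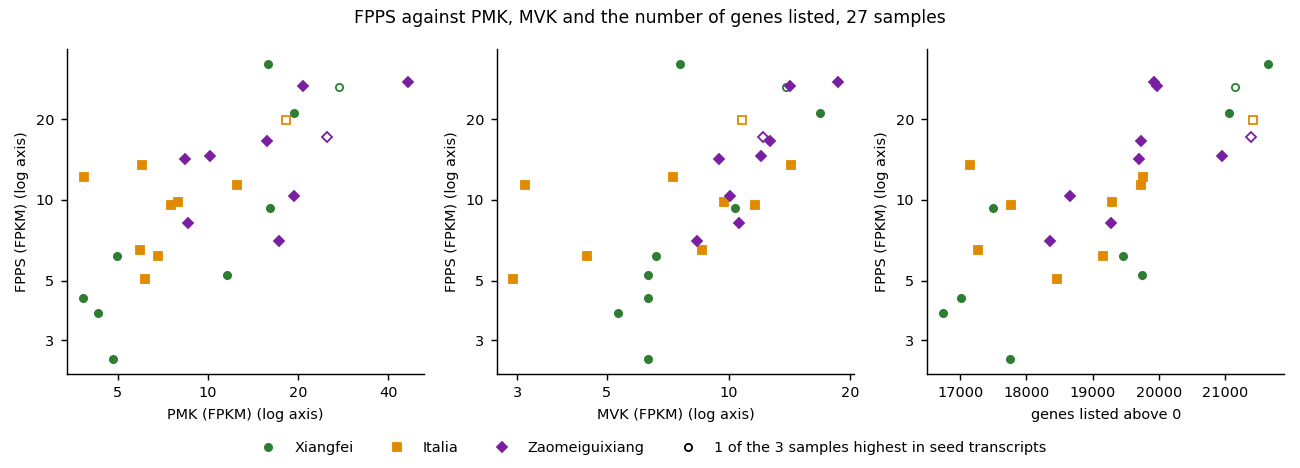
FPPS in FPKM (vertical axes, log scale) against PMK and MVK in FPKM (log scale) and against the number of genes listed above 0 in the sample, with 1 point per sample for 27 samples and open points for the 3 samples highest in seed transcripts. FPPS was higher where PMK was higher (r = 0.74 on log2(FPKM + 1)) and where more genes were listed (r = 0.73).

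Among the 15381 other genes with a mean FPKM of at least 1, the gene with the profile most like that of HMGS over the 27 samples was LOC104882418, the second HMGS gene (Pearson r = 0.86). For PMK it was LOC100242045, described as a serine/threonine-protein kinase (0.93), and for FPPS LOC100852922, described as a phytochrome-associated phosphatase (0.91). For HMGR it was LOC100261161, described as an aspartic protease of guard cells (0.84), for AACT LOC100253901, described as a putative ribosomal protein of the large subunit (0.82), and for MVK LOC100266585, described as a cysteine-rich repeat secretory protein (0.8). For IDI and MVD they were the uncharacterized genes LOC100249202 (0.82) and LOC100250261 (0.79). These are the highest values among many genes and are descriptions.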

How the data were processed

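RNA of berries was sequenced in 27 samples, 3 replicates in each of 9 groups of cultivar and stage, as GEO's labels give them. The authors filtered the reads, mapped them with Hisat2 to the grapevine genome V2 to find further transcripts, merged these with the reference and quantified the merged set with Bowtie2 and RSEM. The authors deposited, for each sample, expected counts per gene without normalization, FPKM values normalized for transcript length and fragments assigned, given to 2 decimals, together with mean transcript lengths. A gene not listed in a sample was taken as 0, replicates were not pooled, and genes keep the symbols of the files. Reads shared between copies of a gene were assigned by RSEM's estimate, which bears on the AACT, HMGS, HMGR and IDI families.

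Whole-number roundings of the expected counts were fitted with edgeR 4.0.16 (quasi-likelihood, TMM, filterByExpr) in R 4.3.3, with all 27 samples in 1 fit of 9 group coefficients, so that the groups share the estimate of spread. P-values were adjusted by Benjamini-Hochberg over the 21152 genes tested, and a call was an adjusted p of at most 0.05. Standard errors were obtained by dividing the absolute log2 fold change by the root of F. The authors name DESeq2 with thresholds of 1 for the absolute log2 ratio and 0.001 for the adjusted p. DESeq2 1.42.0, limma 3.58.1 on log2(FPKM + 1), other scalings, no filter, a replicate block, fits of 6 samples and leaving out each sample were alternatives, and leaving out the 3 samples highest in seed transcripts was added after seeing the data. The tests of shares within a number were added likewise. The self-test on simulated counts recovered the known changes at low dispersion, and at the samples' own dispersion missed most of the smaller ones, so that a member not called may still have changed.

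Named were the members, the next gene of each number by mean FPKM, the other genes with the numbers and the sterol genes, of which the most abundant called gene of an enzyme is described, and the most similar gene to each member. The third HMGR gene, LOC100243051, was named as 1 of 3 called. The members and the lists were chosen with earlier results of these data known. Python 3.11.15, pandas 2.3.3, numpy 2.4.6 and matplotlib 3.10.9 were used. Intervals of counting error were not computed. Each member had at least 61 expected counts in every sample, and the low counts of FPPS and MVK limit what can be shown for them. P-values measure the spread between berry pools.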

Additional observations from a re-analysis of the deposited data

How the results depend on the processing

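The counts of called members depended on tool, scaling and single samples. For EL36 over EL35 (1 called) limma called 2 (PMK and AACT), library size alone called AACT in place of PMK, the study's thresholds left 0 and leaving out any 1 sample gave 1 to 1. For EL38 over EL35 (0) the fits without 2 or 3 of the samples with seed transcripts called 2, and leaving out 1 sample gave 0 to 1. For Italia over Xiangfei (0) DESeq2 and the fits without the 2 or 3 seed samples called 1 (HMGS, lower), library size alone and limma called another 1 (IDI, higher), and leaving out 1 sample gave 0 to 2, the 2 being without Xiangfei EL38 replicate 3. For Zaomeiguixiang over Xiangfei (0) library size alone and limma called 1, DESeq2 2, the fits without the 2 or 3 seed samples 3, and leaving out 1 sample gave 0 to 1. The share of all genes called also moved there, to 11.1% with library size alone, 17.3% with DESeq2 and 24.1% without the 3 seed samples. For Zaomeiguixiang over Italia (1) DESeq2 and limma called 3, DESeq2 size factors, library size alone and both fits without seed samples 2, the study's thresholds 0, and leaving out 1 sample 0 to 2, the 0 being without Zaomeiguixiang EL35 replicate 1. Over the 18 pairwise contrasts (0) library size alone and fits of 6 samples called 1, DESeq2 and limma 3, the fit without 2 seed samples 7 and that without 3 gave 6, and leaving out 1 sample gave 0 to 4. EL38 over EL36 and the interaction stayed at 0 under every setting run. With library size alone, DESeq2 and without the 3 seed samples, the share of all genes called was 13.4%, 16.1% and 17.9% for Zaomeiguixiang over Italia. For Italia over Xiangfei it was 14%, 17% and 16.5%. For EL38 over EL35 it was 9.98% without the 3 seed samples. Where no share over all genes is given for a setting, its count describes the members only. The cause of the differences between settings was not tested.

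Leaving out 1 sample turned the sign of small EL38 over EL35 changes, between -0.26 and 0.11 for LOC100245191 (HMGR) and between -0.01 and 0.22 for LOC100251686 (MVD). It did so for the AACT share (-1.28 to 0.914 points at EL36, -1.55 to 0.545 at EL38) and the HMGS share (-1.27 to 0.287 at EL36). The HMGR share stayed between 25.6 and 32.4 points at EL36 and between 22.3 and 29.2 at EL38, and the IDI share between 14.9 and 17.8 and between 19.3 and 22.4. The median correlation of members stayed between 0.1 and 0.16. Scaling by library size alone moved the median of all genes from 0.06 to 0.38 for Zaomeiguixiang over Xiangfei and from -0.02 to -0.15 for EL36 over EL35. Same-numbered samples did not deviate together on average (mean r -0.021 over 27 pairs of the same cultivar). Whether the numbers pair samples by vine is given by neither the labels nor the paper, and a mean cannot settle it. With the replicate block edgeR called 1 member for EL36 over EL35, 1 for Zaomeiguixiang over Italia and 0 otherwise. With a replicate block within each cultivar, PMK at EL36 over EL35 was -0.94 (edgeR adjusted p = 0.0457). The low expected counts of FPPS (61 to 792) and MVK (103 to 762) limit what can be shown for them.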

Other observations

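Some genes of the sterol branch were called between cultivars, averaged over stages, where cultivar and ripeness cannot be told apart. Sterol 14-demethylase LOC100242104, the cytochrome P450 that removes a methyl group from sterol precursors, was lower in Italia than in Xiangfei (log2 fold change -1.25, SE 0.31, edgeR adjusted p = 0.00773) and higher in Zaomeiguixiang than in Italia (1.33, SE 0.31, edgeR adjusted p = 0.00547). Cycloartenol synthase LOC100258153 was higher in Zaomeiguixiang than in Xiangfei (0.85, SE 0.23, edgeR adjusted p = 0.0153). Cycloeucalenol cycloisomerase LOC100262783, which opens the cyclopropane ring of sterol precursors, was lower in Zaomeiguixiang than in Xiangfei (-1.48, SE 0.27, edgeR adjusted p = 0.000618) and than in Italia (-1.16, SE 0.26, edgeR adjusted p = 0.00429). Of the 31 tested genes of the branch, 6 were called for Italia over Xiangfei (2 higher), 8 for Zaomeiguixiang over Xiangfei (5 higher) and 5 for Zaomeiguixiang over Italia (2 higher), beside 16.1%, 16% and 15.5% of all genes, so that the shares for both contrasts with Italia were close to the background.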
